A study of Mus musculus with 12 samples.

Results

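The regions described here are the 1% with the strongest ESRRB ChIP signal in mouse embryonic stem cells, out of 86197 regions outside the mitochondrial chromosome. Input was not used in the ranking, so a strong signal alone does not show that ESRRB is bound there. They were selected on measured values. CPM, a region's counts scaled to the library's total over all regions, was averaged over the 3 libraries of each line, and the mean of both averages ranked the regions. They are called members below, and the level of a member is therefore a description here and was not tested. ESRRB chromatin immunoprecipitation and sequencing (ChIP-seq) was done in a line labelled NanogKO:Esrrb:Nanog, called "with Nanog", and in a line labelled NanogKO:Esrrb, called "without Nanog". Both are Nanog knockout embryonic stem cells with ESRRB, carry the same cell line label N{delta}:cE:iN, and were grown without treatment in serum with leukaemia inhibitory factor (LIF). The labels do not say how Nanog was restored or whether a line is a single clone. Each line had 3 ESRRB ChIP and 3 input libraries, and the count table used here holds the 6 ChIP libraries, named A, B and C in each line.

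ESRRB is an orphan nuclear receptor that holds mouse embryonic stem cells in the self-renewing, naive state. It binds DNA mostly as a monomer through an extended nuclear receptor site, an AAGGTCA core with extra bases on its 5′ side. NANOG is a homeodomain factor of the same network, and Esrrb is one of its best known target genes. Estrogen-related receptors are also known as regulators of mitochondrial energy metabolism genes. ChIP counts measure how much DNA of a region was recovered with the antibody, not how much the nearby gene is transcribed.

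Because the finding is about where ESRRB signal is strongest, the promoter sequences shown are those of members that overlap a promoter and hold the receptor site. Each is the 250 bases before a gene's annotated start from RefSeq (GRCm38.p6), written 5′ to 3′ on the gene's strand, with the match in capitals. The motif TNAAGGTCA was searched on both strands. The matches before a start are in the promoters of Atp5g3 (chr2:73911327-73911576, minus strand), which encodes a subunit of mitochondrial ATP synthase, Ndufb4 (chr16:37654369-37654618, minus strand), an accessory subunit of respiratory complex I, and Tmem191c (chr16:17276050-17276299, plus strand).
Atp5g3: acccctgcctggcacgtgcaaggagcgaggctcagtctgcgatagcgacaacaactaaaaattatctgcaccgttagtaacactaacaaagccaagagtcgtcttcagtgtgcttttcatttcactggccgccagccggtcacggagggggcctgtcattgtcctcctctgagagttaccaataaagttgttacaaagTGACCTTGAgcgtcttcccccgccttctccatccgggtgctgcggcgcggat
Ndufb4: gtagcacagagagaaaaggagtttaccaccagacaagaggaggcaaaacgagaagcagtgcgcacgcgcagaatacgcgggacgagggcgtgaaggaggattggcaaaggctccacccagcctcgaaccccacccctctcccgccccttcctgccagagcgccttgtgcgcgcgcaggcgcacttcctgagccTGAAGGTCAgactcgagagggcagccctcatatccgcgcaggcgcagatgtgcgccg
Tmem191c: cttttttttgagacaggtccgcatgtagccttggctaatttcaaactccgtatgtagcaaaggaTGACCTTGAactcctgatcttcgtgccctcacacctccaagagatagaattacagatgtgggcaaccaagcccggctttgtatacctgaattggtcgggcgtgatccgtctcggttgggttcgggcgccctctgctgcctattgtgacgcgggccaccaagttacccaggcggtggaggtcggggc

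In Atp5g3 and Tmem191c the match lies on the opposite strand, so it reads TGACCTTGA here, and it begins 52 and 186 bases before the start. In Ndufb4 it lies on the gene's own strand, 57 bases before the start. Members at rank 103 and rank 225 overlap promoters that hold only the core AAGGTCA, of Platr7 and Gm16201, which are not printed. The promoters of Eno1 (chr4:150236458-150236707, plus strand), a glycolytic enolase, and Got1 (chr19:43524606-43524855, minus strand), the cytosolic aspartate aminotransferase, also hold only this core. They were added after their values were seen, as metabolic enzyme genes among the stronger members. This choice by function does not describe the genes whose promoters hold the core.
Eno1: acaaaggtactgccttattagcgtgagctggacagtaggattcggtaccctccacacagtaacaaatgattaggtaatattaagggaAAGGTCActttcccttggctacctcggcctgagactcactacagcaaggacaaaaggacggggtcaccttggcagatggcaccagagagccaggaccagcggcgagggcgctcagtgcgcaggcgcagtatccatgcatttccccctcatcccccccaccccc
Got1: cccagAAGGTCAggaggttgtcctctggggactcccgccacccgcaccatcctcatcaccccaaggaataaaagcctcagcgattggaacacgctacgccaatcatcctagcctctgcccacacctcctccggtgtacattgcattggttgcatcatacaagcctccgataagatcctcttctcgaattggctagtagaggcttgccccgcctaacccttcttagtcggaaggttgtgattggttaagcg

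Of the members, 151 overlapped a promoter window, here 250 bases before to 50 after a start, and they overlapped 199 of the 32817 windows. TNAAGGTCA was found in 4 of those 199 windows, or 2.01% (exact Clopper-Pearson 95% interval 0.55 to 5.07%), against 1.68% of windows overlapped by the other regions and 1.28% of all windows. Of the 4 matches 3 are those printed, and the other, in the window of A230107N01Rik, lies after the start. The core AAGGTCA, which every TNAAGGTCA match also contains, was found in 26 of the 199 windows, or 13.1% (8.72 to 18.6%). Its share was 6.90% in windows overlapped by the other regions and 4.72% in all windows. The narrower form TCAAGGTCA was in 3 of the 199 windows, or 1.51% (0.31 to 4.34%). That form was in 0.67% of windows overlapped by the other regions and 0.42% of all windows. Only promoter windows were searched, so members or parts of members outside them were not examined for the site. These intervals cover counting error only, and the letters of a window say nothing of whether the receptor sits there.

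The ranking value of the members ran from 75.0 to 1070 CPM, with a median of 95.4 CPM and quartiles of 83.1 and 114 CPM, where the median of all regions was 6.63 CPM. The members just inside the limit lay near Il6st (75.2 CPM), Hmga1 (75.2 CPM), Vmn2r62 (75.1 CPM), Gnat3 (75.0 CPM) and Tbx3 (75.0 CPM). Regions just outside it lay in Med23 (74.9 CPM), Dner (74.7 CPM), St3gal3 (74.6 CPM) and Slc2a3 (74.6 CPM). No step separates members from the next regions, so the limit is a count and not a class of sites. The strongest regions of Nanog itself, at rank 901, and of Nr0b1, at rank 1038, fell a little short, while those of Prdm14 and Klf2 ranked 2977 and 6919.

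**Figure D1:**
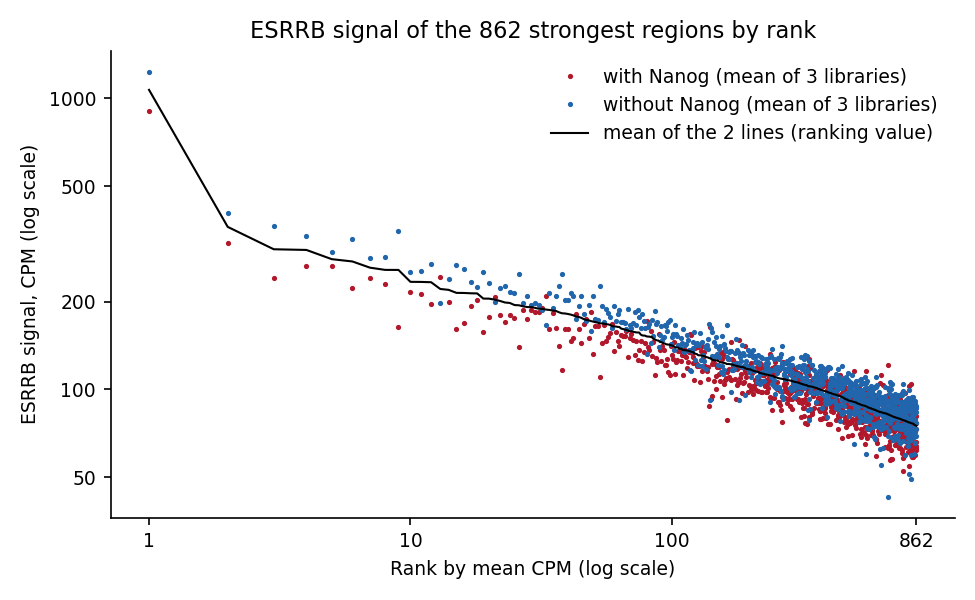
Mean CPM of each member in the line with Nanog and in the line without Nanog, against its rank, with both axes on a log scale; each point is the mean of 3 libraries and the black line is the ranking value. The level falls most from rank 1 to rank 2 and then gradually, to 75.0 CPM at the limit.

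Members were counted deeply. A member's median count was 626, 749 and 718 in libraries A, B and C with Nanog and 288, 351 and 528 in libraries A, B and C without Nanog, against medians of 18 to 56 for all regions. Within a line, the median coefficient of variation of a member over 3 libraries was 5.82% with Nanog and 9.08% without Nanog. It was 6.48% with Nanog and 10.1% without Nanog in the next 1% of ranks, and 13.3% with Nanog and 21.9% without Nanog over all regions. The libraries with Nanog held 6689166 to 8382646 counts in regions, and those without Nanog 2734338 to 5193707, so depth differs with the line. Separate cultures are not stated in the labels, so the spread that the tests below use may be technical only.

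The members made up a smaller share of the counts in the line with Nanog. They held 8.88, 8.37 and 8.71% of all region counts in libraries A, B and C with Nanog, and 10.2, 9.37 and 9.71% in libraries A, B and C without Nanog. The shares do not overlap between the lines. The means were 8.65 ± 0.256% with Nanog and 9.76 ± 0.421% without Nanog (SD, n = 3 each), a difference of -1.11 percentage points. The two-sided exact permutation test gave p = 0.1, the smallest value that 3 libraries against 3 allow. The share sums the values whose mean over both lines ranked the members, and the test does not allow for that choice. Ranking by the line without Nanog alone kept 768 members, and by the line with Nanog alone 737. Whether the choice favours the line without Nanog, here or in the calls below, was not tested.

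**Figure D2:**
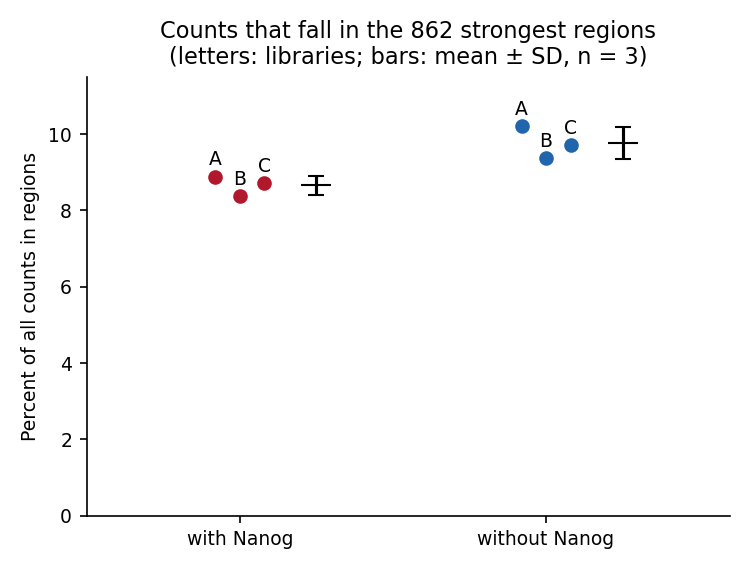
Share of each library's region counts that lies in the members, in percent from 0, for libraries A, B and C with Nanog and without Nanog; the horizontal mark is the mean of 3 libraries and the error bar its SD. The 3 libraries with Nanog, from 8.37 to 8.88%, lie below the 3 without Nanog, from 9.37 to 10.2%.

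Region by region, many more members were lower with Nanog than higher. All members entered the test, and 348 were lower (40.4%), 57 higher (6.61%) and 457 not called with Nanog. Calls are those of edgeR's quasi-likelihood test at an adjusted p under 0.05, by the Benjamini-Hochberg method over all 84892 regions tested. Over all those regions 9.78% were lower and 9.42% higher. The median log2 fold change, with over without Nanog, was -0.21 among members and -0.01 among all regions. It was below 0 in 653 members, or 75.8%, against 51.1% of all regions tested. Libraries of the lines did not overlap in all 57 higher members, in 320 of the 348 lower members and in 116 of the 457 not called. The share without overlap over all regions was not computed. These counts therefore do not show whether members separate more often than other regions.

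That balance moved with the scaling, since a fold change here is relative to the other regions. Fold changes are scaled by TMM while levels are CPM by column total, and the median of all regions was -0.01 by TMM and 0.03 by column totals, so a fold change lies a little below the ratio of the printed levels. With an offset fitted along the signal level, which centres strong and weak regions alike, 210 members were lower and 139 higher. With scaling on the weakest regions, 451 were lower and 32 higher, at a median of -0.31 for members and -0.12 for all regions. Leaving out library B with Nanog left 34 higher and 234 lower, and leaving out library C with Nanog left 32 higher and 268 lower.

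The differences were mostly modest. Among the lower members the median log2 fold change was -0.45 and among the higher members 0.41. A difference of at least 2-fold was called in 5 lower members (0.58%, against 2.09% of all regions) and in 3 higher members (0.348%, against 4.38% of all regions). The SD of the log2 fold change was 0.32 among members and rose to 0.58 among the weaker 50% of regions, while the median standard error rose from 0.106 to 0.30.

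The excess of lower calls was smaller further down the ranks. In the next 1% of ranks, 29.9% were lower and 12.5% higher with Nanog. Between 2 and 5% of the ranks, 22.4% were lower and 14.1% higher. Between 5 and 10% of the ranks, 17.8% were lower and 16.4% higher. The gap did not narrow further below that, with 15.7% lower and 13.9% higher between 10 and 20% of the ranks and 11.7% lower and 9.93% higher between 20 and 50%. In the weaker 50% the order was the other way, with 4.73% lower and 7.16% higher, at a median log2 fold change of 0.03.

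**Figure D3:**
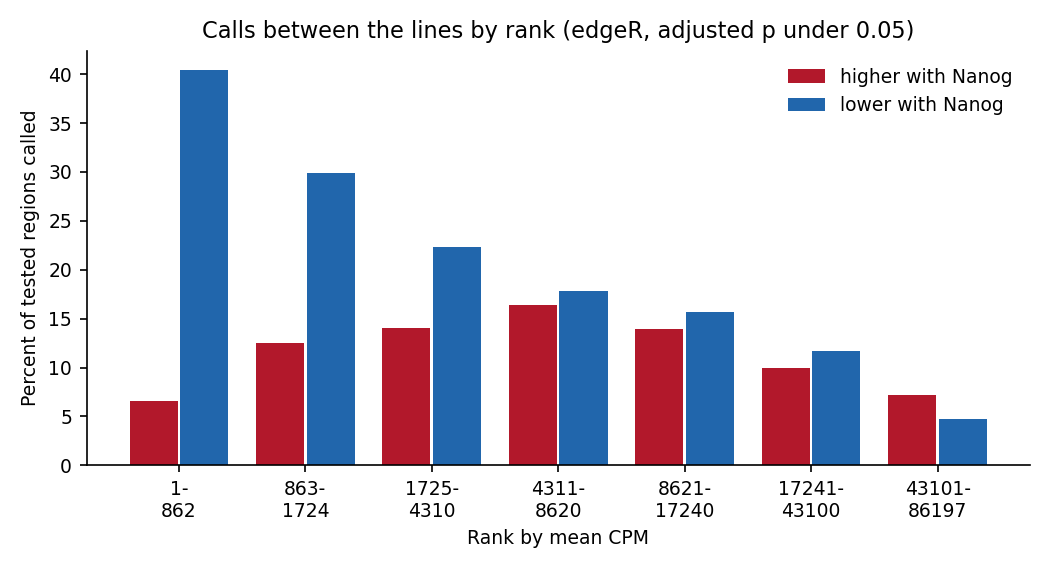
Percentage of tested regions called higher and lower with Nanog (edgeR, adjusted p under 0.05) in bands of rank, from the members at the left to the weakest regions at the right. Lower calls fall from 40.4% in the members to 4.73% in the last band, while higher calls are most frequent, at 16.4%, between 5 and 10% of the ranks.

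The members were wide regions. Their median width was 1576 bp, with quartiles of 1184 and 2023 bp and a range of 359 to 5882 bp, against a median of 344 bp for the other regions. Counts of a region grow with its width, so width is part of what the ranking picked. Per length the members were also high, with a median of 65.2 CPM per kb against 19.5 CPM per kb in the other regions.

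The narrow members were those most often lower with Nanog. Of the 86 members under 1000 bp wide, 66 were lower (76.7%) and 0 higher, at a median log2 fold change of -0.49. The share of lower calls was 45.9% at 1000 to 1500 bp, 37.4% at 1500 to 2000 bp and 20.1% at 2000 to 3000 bp. The 32 members of 3000 bp or more break the order, with 34.4% lower and 15.6% higher. Across all members, Spearman's rho was 0.37 between the log2 fold change and width, and -0.10 between the log2 fold change and the ranking value. Both are descriptions across regions of the same 6 libraries, and regions are not independent replicates. Width is also not independent of the line, because regions are merged peaks of both lines. Peaks with Nanog covered a median of 1575 bp of a member, and peaks without Nanog 1071 bp. How far the trend with width follows from this was not tested.

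**Figure D4:**
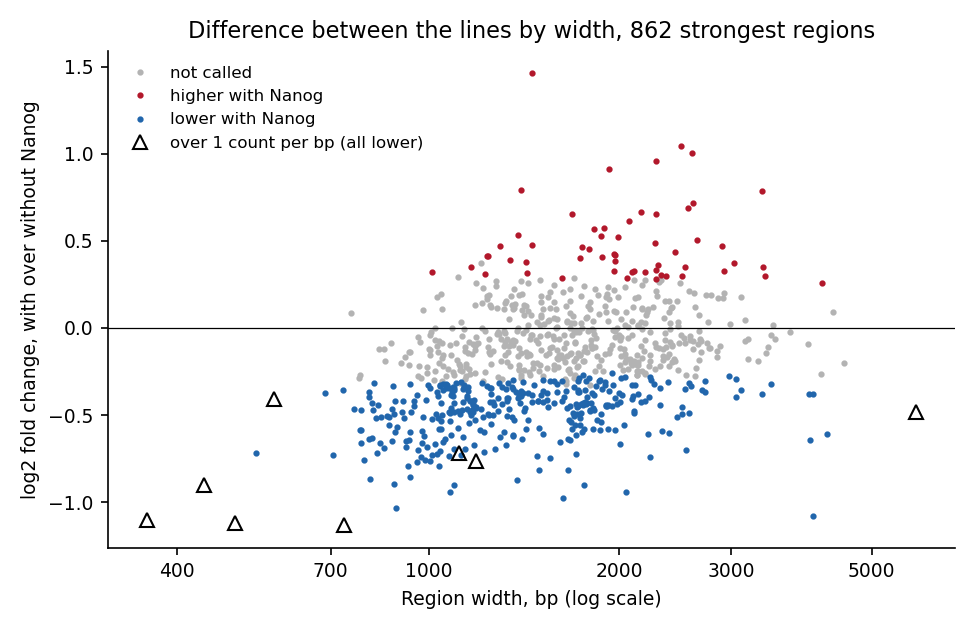
Log2 fold change with over without Nanog of each member against region width in bp (log scale), with members called higher, lower and not called in different colours and the 8 members above 1 count per bp as triangles. Members under 1000 bp lie mostly below 0, and none of them was called higher.

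A related measure, counts per bp, shows how densely reads fill a region, taken as the highest over the 6 libraries. Among the 183 members under 0.4 counts per bp, 31.7% were lower with Nanog. The share was 38.0% of 421 members at 0.4 to 0.6, 46.2% of 223 members at 0.6 to 0.8, 70.4% of 27 members at 0.8 to 1, and all 8 members above 1 count per bp. In the line without Nanog, where library totals differ most, counts of a region should grow in proportion to the total, a slope of 1 on log scales. The median slope was 1.01, 0.95, 0.90, 0.77 and 0.49 in these 5 classes. The part of counts per bp in the calls was not tested, and the labels do not state whether duplicate reads were removed.

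Of the 8 members above 1 count per bp, 3 had level counts over all libraries. The region at chr2:98666424-98667157, rank 9, had 1252, 1240 and 1232 counts in libraries A, B and C with Nanog and 1260, 1262 and 1254 in libraries A, B and C without Nanog. Its neighbour at chr2:98662397-98662890, rank 38, had 882, 886 and 887 counts with Nanog and 897, 885 and 892 without Nanog. The region at chr9:35305229-35305587, rank 162, had 601, 591 and 596 counts with Nanog and 596, 597 and 592 without Nanog.

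These counts are almost the same in every library although the totals run from 2734338 to 8382646, so their CPM is set by the total. Their log2 fold changes, -1.13 ± 0.13, -1.12 ± 0.14 and -1.10 ± 0.14 (SE), are among the 5 largest decreases of all members, with counts that hardly differ between the lines. In the other 5 the counts rose with the total within the line without Nanog, at slopes of 0.376 to 0.835. These were the regions inside Sfi1, a centrosome protein gene, on chromosome 11 at ranks 15, 19 and 160, a region 21.1 kb from Ly6c2, and the strongest region of all. Not all rose over the 6 libraries. Rank 15 had 1254 counts in library C without Nanog and 1239, 1166 and 1261 in libraries A, B and C with Nanog. Rank 19 had 1195 against 1183, 1172 and 1232, and the Ly6c2 region 589 against 573, 590 and 588. At ranks 1 and 160 every library with Nanog had more counts than every library without it. Of the 111 regions of the table above 1 count per bp, 9 were lower with Nanog, and 8 of these 9 are the members named here. The 4 mitochondrial regions left out of the ranking had 2.06 to 2.41 counts per bp. Without the 8 members, 340 of 854 were lower and 57 higher, and with only regions under 0.5 counts per bp in the fit, 132 of 394 members were lower and 29 higher.

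**Figure D5:**
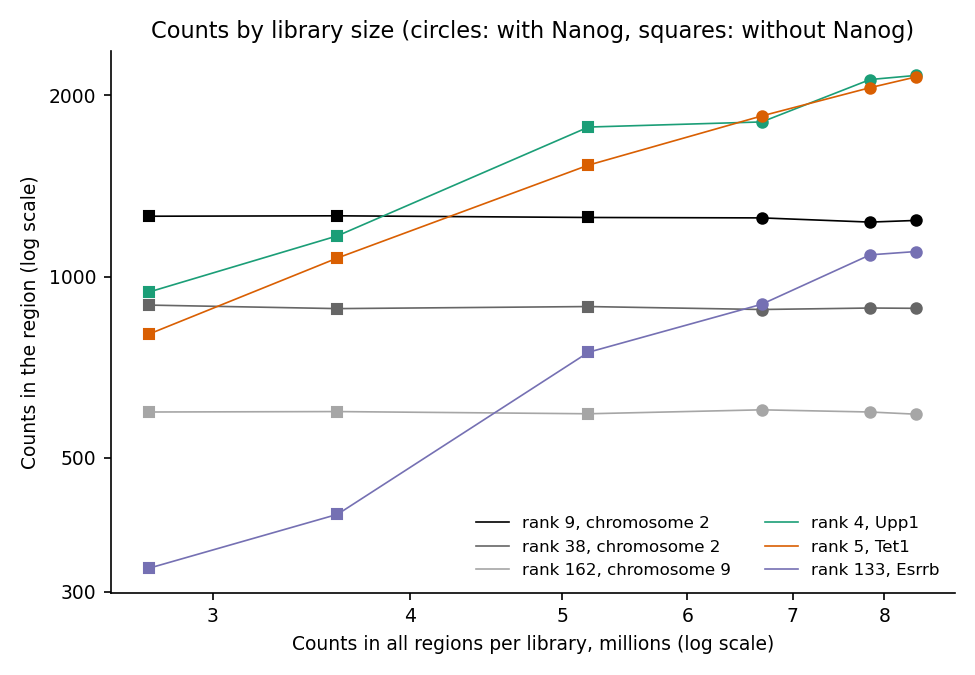
Counts of 6 members in each of the 6 libraries against the total region counts of that library, both on log scales, with circles for libraries with Nanog and squares for libraries without Nanog. The 3 members at ranks 9, 38 and 162, such as the chromosome 2 region at rank 9 with 1232 to 1262 counts, stay level, while the other 3 members shown rise with the total.

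The strongest member, at chr17:39843002-39848883 and 5882 bp wide, had 891, 956 and 877 CPM in libraries A, B and C with Nanog and 1187, 1421 and 1090 CPM in libraries A, B and C without Nanog. It was lower with Nanog (log2 fold change -0.48 ± 0.08, edgeR adjusted p = 3.86e-05), though not under the offset along the signal level (0.00). RefSeq annotates Rn18s-rs5, a pseudogene related to ribosomal RNA, within it, and the long noncoding RNA AY036118 begins there and runs on beyond it. Reads of repeated ribosomal DNA copies can be placed at such a pseudogene, so its level is uncertain. The nearest protein-coding gene, Esp38, is 102 kb away.

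The region at rank 2, 2.71 kb from Mcl1, an anti-apoptotic relative of BCL2, had 336, 302 and 322 CPM in libraries A, B and C with Nanog and 443, 361 and 409 CPM in libraries A, B and C without Nanog. It was lower with Nanog without overlap (-0.38 ± 0.08, edgeR adjusted p = 0.00173), though not past the threshold under the offset along the signal level. The region at rank 3, 26.8 kb from Tcf15, a helix-loop-helix factor of the epiblast, had 257, 227 and 239 CPM with Nanog and 399, 332 and 365 CPM without Nanog, and fell further (-0.64 ± 0.09, edgeR adjusted p = 3.4e-06).

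Upp1, uridine phosphorylase, held rank 4 at its gene end, with 266 ± 7.60 CPM with Nanog and 337 ± 10.7 CPM without Nanog (SD, n = 3 each, as for all such values), a log2 fold change of -0.38 whose call was likewise lost under that offset. Rank 5 lay 7.80 kb from Tet1, a dioxygenase that oxidises 5-methylcytosine, with 265 ± 10.3 CPM with Nanog and 296 ± 2.40 CPM without Nanog, and was not called (edgeR adjusted p = 0.0813). Rank 6, inside the syntrophin gene Sntb2, fell to 222 ± 21.5 CPM with Nanog, against 328 ± 26.7 CPM without Nanog (-0.60 ± 0.09). Rank 7, at the end of Mllt6, was not called and its libraries overlap.

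Rank 8, inside the lysosomal mannosidase gene Manba, rank 10 near A930007A09Rik, rank 11 at Phc1, a Polycomb repressive complex 1 subunit, and rank 14 inside Etl4 were each lower with Nanog, by log2 fold changes of -0.27 to -0.35. None of these 4 calls held under the offset along the signal level or without library B with Nanog. Slc2a1, which encodes the glucose transporter GLUT1, was the one gene of the first 15 ranks with a higher region. At rank 13 and 34.6 kb from the gene, it had 248, 249 and 236 CPM in libraries A, B and C with Nanog and 211, 191 and 195 CPM in libraries A, B and C without Nanog (0.26 ± 0.09, edgeR adjusted p = 0.0319). The lines do not overlap, but the call was lost in 6 of 17 alternatives, among them those without any library of the line with Nanog and without library C of the other line.

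Sox2, a core pluripotency factor, had a pair of neighbouring members, both more than 100 kb from the gene. The farther one, rank 12 and 107 kb away, fell to 197 ± 21.5 CPM with Nanog, against 270 ± 26.5 CPM without Nanog (-0.49 ± 0.09, edgeR adjusted p = 0.000362). The nearer one, rank 27 and 103 kb away, had 188 ± 7.25 CPM with Nanog and 198 ± 20.6 CPM without Nanog and was not called. The difference between the neighbours' fold changes was not tested.

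Of the 57 regions higher with Nanog, 19 were among the stronger 50% of the members. The largest increase was inside Crtac1, a gene of an extracellular matrix protein, at chr19:42321713-42323167. It had 122, 118 and 124 CPM in libraries A, B and C with Nanog and 41.0, 46.4 and 41.2 CPM in libraries A, B and C without Nanog (1.46 ± 0.11, edgeR adjusted p = 2.46e-10). Every library with Nanog was far above every library without it.

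Klf4, a naive pluripotency factor, had a pair of distal members that both rose. The one 61.8 kb away, rank 822, had 97.3, 111 and 104 CPM in libraries A, B and C with Nanog and 50.1, 50.8 and 46.6 CPM in libraries A, B and C without Nanog (1.05 ± 0.11, edgeR adjusted p = 9.59e-08). The one 50.5 kb away, rank 181, had 151, 147 and 146 CPM with Nanog and 84.5, 109 and 81.1 CPM without Nanog (0.66 ± 0.11, edgeR adjusted p = 5.39e-05). Neither overlaps between the lines.

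A region 71.0 kb from Map4k3, a kinase gene, rose to 112 ± 17.9 CPM with Nanog, against 54.9 ± 12.4 CPM without Nanog (1.00 ± 0.13). The region nearest to Pdcd6ip, which encodes a protein of membrane remodelling, lies 191 kb from it and rose to 103 ± 12.0 CPM with Nanog, against 51.2 ± 14.9 CPM without Nanog. Inside Dennd2c, a gene of the family that activates Rab proteins, the level was 115 ± 9.11 CPM with Nanog and 60.0 ± 7.23 CPM without Nanog. The other largest increases were near Plpp4 (0.79), Olfr90 (0.79), Gm9376 (0.72), Il6ra (0.69), the alpha chain of the interleukin 6 receptor, and Lrrc34 (0.67), as log2 fold changes.

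Gnas, the imprinted gene of the stimulatory G protein alpha subunit, held the largest decrease whose counts grew with depth in the line without Nanog. The region lies inside the gene, at chr2:174286079-174290120. It had 124, 85.9 and 122 CPM in libraries A, B and C with Nanog and 229, 180.0 and 271 CPM in libraries A, B and C without Nanog (-1.08 ± 0.13, edgeR adjusted p = 3.89e-07). The lines do not overlap, but both spread widely. The region nearest to Chordc1, an HSP90 co-chaperone gene 417 kb away, had 51.6, 49.0 and 57.1 CPM with Nanog and 111, 93.1 and 109 CPM without Nanog (-1.03 ± 0.11, edgeR adjusted p = 1.37e-07).

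A region 6.70 kb from Uri1, a prefoldin-like chaperone gene, fell to 59.2 ± 3.76 CPM with Nanog, against 111 ± 6.58 CPM without Nanog (-0.94 ± 0.11). Inside the zinc finger gene Zfp64 the level was 57.2 ± 12.0 CPM with Nanog and 106 ± 30.3 CPM without Nanog (-0.94 ± 0.15). The remaining large decreases lay inside Zswim1, 34.8 kb from Lnx1, a ubiquitin ligase gene, and 134 kb from Gm9733, each with a log2 fold change of -0.90. Ly6c2, also at -0.90, is among the 8 densest members.

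Members near genes of naive pluripotency were mostly not called. Of 18 listed genes, 7 had a member within 50 kb (38.9%, against 2.98% of all 21900 protein-coding genes). These genes also have many regions, and 8 of their 239 regions were members (3.35%, against 1.01% of all regions near protein-coding genes). The gene lists, here and below, were written with earlier results of these data known. Their shares are therefore descriptions, with no test. Of the 8 members 0 were higher and 1 lower with Nanog, at a median log2 fold change of -0.05. Over all members 6.61% were higher and 40.4% lower. The calls of a list, here and below, were not tested against these shares, and most lists hold few members. The count of higher members near these genes depends on the limit of 50 kb. Within 100 kb, Klf4 and Tbx3 joined them, which gave 11 members at a median log2 fold change of 0.06. Of these 11, 2 were higher, both at Klf4, and 1 was lower. The region inside Esrrb itself, rank 133, had 135, 131 and 139 CPM in libraries A, B and C with Nanog and 120.0, 112 and 144 CPM in libraries A, B and C without Nanog, overlapping and not called (0.06 ± 0.10, edgeR adjusted p = 0.742). Inside Tfcp2l1, a LIF-responsive factor, the stronger of a pair of members had 113 ± 3.05 CPM with Nanog and 110.0 ± 9.88 CPM without Nanog.

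Zfp42, the naive marker also called Rex1, had 115 ± 12.2 CPM with Nanog and 121 ± 6.65 CPM without Nanog 13.4 kb away. Pou5f1, which encodes OCT4, had 98.1 ± 2.71 CPM with Nanog and 83.7 ± 2.13 CPM without Nanog at its gene end, and was not called although its libraries do not overlap (edgeR adjusted p = 0.203). The member 26.1 kb from Klf5 was the lower one, at 77.7 ± 4.84 CPM with Nanog and 93.7 ± 4.40 CPM without Nanog (-0.31 ± 0.11, edgeR adjusted p = 0.0388), a call lost in 9 of 18 alternatives, with 5 of the 6 leave-one-out fits among them. Tbx3, at the very limit of the ranking, had 80.9 ± 10.5 CPM with Nanog and 69.1 ± 16.2 CPM without Nanog and was not called.

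Of 18 genes of general pluripotency, 10 had a member within 50 kb, with 12 members, 0 higher and 3 lower at a median log2 fold change of -0.16. Over all members the median was -0.21, with 40.4% lower. These 12 were 5.80% of the regions of the listed genes, against 1.01% of all regions near protein-coding genes. A pair of the lower ones lay at Mybl2, a cell cycle transcription factor gene, where the stronger fell to 141 ± 4.37 CPM with Nanog, against 187 ± 18.7 CPM without Nanog (-0.45 ± 0.09). Tdgf1, a Nodal co-receptor, had 182 ± 8.05 CPM with Nanog and 174 ± 8.42 CPM without Nanog at its gene end and was not called. Sall4 (0.15), Utf1 (0.11) and Tet2 (-0.24), by their log2 fold changes, were not called either. Of 15 genes of the formative and primed epiblast, 2 had a member, Tcf15 and the ETS factor gene Etv4, and both were lower with Nanog. They were 1.20% of the regions of the epiblast genes, near the 1.01% of all regions near protein-coding genes. With 2 members, the calls say little beside the 40.4% of all members that were lower.

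Genes of nuclear receptors had 4 members over 4 of 30 listed genes (1.71% of their regions, against 1.01% of all regions near protein-coding genes). Nr5a2, a receptor that shares part of ESRRB's role in these cells, had 118 ± 9.84 CPM with Nanog and 123 ± 7.09 CPM without Nanog inside the gene and was not called. Esrra, which encodes the related receptor ERR alpha, fell to 85.1 ± 7.39 CPM with Nanog, against 113 ± 13.8 CPM without Nanog (-0.45 ± 0.11, edgeR adjusted p = 0.00386). Rara, the retinoic acid receptor alpha gene, rose to 112 ± 3.90 CPM with Nanog, against 78.0 ± 9.80 CPM without Nanog (0.47 ± 0.11, edgeR adjusted p = 0.00216).

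Of 18 genes of receptor coregulators, 2 had a member (1.47% of their regions, against 1.01% of all regions near protein-coding genes). Inside Nrip1, a corepressor of nuclear receptors, the level was 78.6, 81.2 and 80.8 CPM in libraries A, B and C with Nanog and 137, 126 and 126 CPM in libraries A, B and C without Nanog, a fall without overlap (-0.73 ± 0.10, edgeR adjusted p = 4.68e-06). Inside Ncoa3, the coactivator through which ESRRB is known to act in these cells, it was 92.8 ± 9.27 CPM with Nanog and 95.4 ± 12.9 CPM without Nanog and was not called.

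Energy metabolism was the list with the largest share of its regions among the members. Like the others, it was written with earlier results of these data known. Of 35 listed genes, 13 had a member within 50 kb (37.1%), and 14 of their 120 regions were members (11.7%, against 1.01% of all regions near protein-coding genes). Other lists were above that background too, with 5.80% for general pluripotency and 5.41% for housekeeping genes, a list that shares Sdha with this one. All 14 energy metabolism members lay within 10 kb of their gene. With Nanog 5 were lower and 0 higher, at a median log2 fold change of -0.24, near that of all members.

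The lower ones were at Atp5g3 and at Ckmt1, a mitochondrial creatine kinase gene, Ndufv2, a complex I subunit gene, and Sdha and Sdhb, both of succinate dehydrogenase. Atp5g3, whose promoter is printed above, had 167, 136 and 153 CPM in libraries A, B and C with Nanog and 206, 160 and 182 CPM in libraries A, B and C without Nanog. The lines overlap there, and the call (-0.31 ± 0.10, edgeR adjusted p = 0.0305) was lost in 7 of 17 alternatives, among them those without library B or C with Nanog or library A or C without Nanog. The call at Ndufv2 was lost in 11 of 18 alternatives. Ckmt1 fell most, to 72.1 ± 5.56 CPM with Nanog, against 99.6 ± 14.9 CPM without Nanog (-0.51 ± 0.11). Sdhb had 68.4 ± 6.90 CPM with Nanog and 91.8 ± 9.04 CPM without Nanog (-0.46 ± 0.11), and Sdha had 79.3 ± 6.15 CPM with Nanog and 99.1 ± 9.87 CPM without Nanog (-0.36 ± 0.11), a call lost under the offset along the signal level and without library B or C with Nanog or library A without Nanog.

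Atp5b, the beta subunit of ATP synthase, had 131 ± 9.77 CPM with Nanog and 145 ± 15.2 CPM without Nanog, and Ogdh, of the tricarboxylic acid cycle, was likewise not called. Slc25a4, the ADP and ATP carrier, had 92.5 ± 2.01 CPM with Nanog and 89.9 ± 2.13 CPM without Nanog. The list also holds Atp1b1, with a pair of members that were not called. Of the other promoters printed above, Ndufb4 fell to 87.4 ± 9.52 CPM with Nanog, against 110.0 ± 2.90 CPM without Nanog (-0.37 ± 0.10), a call lost under the offset along the signal level and without library B or C with Nanog. Tmem191c had 63.3 ± 3.19 CPM with Nanog and 102 ± 7.84 CPM without Nanog (-0.74 ± 0.11), and Eno1 had 126 ± 13.7 CPM with Nanog and 188 ± 27.2 CPM without Nanog (-0.62 ± 0.10), both lower. Got1 had 136 ± 10.5 CPM with Nanog and 142 ± 20.3 CPM without Nanog and was not called.

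Of 39 genes of signalling, 8 had a member, with 11 members in 460 regions (2.39%, against 1.01% of all regions near protein-coding genes). Of the 11 members 1 was higher and 3 lower with Nanog, where 6.61% of all members were higher and 40.4% lower. Smad7, an inhibitor of TGF-beta signalling, held the higher one, at 100.2 ± 6.70 CPM with Nanog and 73.8 ± 2.84 CPM without Nanog (0.40 ± 0.11), a call lost without library C with Nanog. Mycn, a MYC family factor gene, fell to 93.8 ± 5.22 CPM with Nanog, against 127 ± 17.7 CPM without Nanog (-0.49 ± 0.11).

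Socs3, the feedback inhibitor of LIF signalling, had a pair of members that were called differently. The one 2.03 kb away fell to 68.9 ± 5.40 CPM with Nanog, against 108 ± 16.7 CPM without Nanog (-0.69 ± 0.11, edgeR adjusted p = 6.61e-05). The one 4.08 kb away had 120 ± 2.72 CPM with Nanog and 107 ± 8.98 CPM without Nanog and was not called, and the difference between them was not tested. Lifr and Il6st, the receptor chains of LIF, were not called.

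Genes of chromatin and DNA methylation had 5 members over 5 of 27 listed genes, at Tet1, Tet2, Mtf2, Jarid2 and Eed, and 0 were called. They were 1.89% of the regions of the listed genes, against 1.01% of all regions near protein-coding genes. Of 15 trophoblast genes, 2 had a member within 50 kb, with 4 members in 117 regions (3.42%). Tead4, which drives trophectoderm fate, rose to 94.3 ± 9.19 CPM with Nanog, against 67.1 ± 4.70 CPM without Nanog (0.45 ± 0.11), a call lost without library B with Nanog. Tfap2c, a trophoblast and germ cell factor, had 3 members between 24.2 and 34.5 kb away, of which the weakest fell to 61.1 ± 6.83 CPM with Nanog, against 93.3 ± 7.22 CPM without Nanog (-0.65 ± 0.11) while the others were not called.

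Of 20 primitive endoderm genes 1, the collagen gene Col4a1, had a member, and it was not called. That was 0.538% of their 186 regions, against 1.01% of all regions near protein-coding genes. The lists of 18 neural and mesendoderm genes and of 14 fibroblast genes had 0. They held only 90 and 41 regions, so few that 0 says little beside a share of 1.01%. Of 15 housekeeping genes 4 had a member (26.7%), with 4 of their 74 regions (5.41%), 0 higher and 2 lower, Sdha and Pgk1. Pgk1, a glycolytic enzyme gene on chromosome X, had 135, 63.7 and 65.0 CPM in libraries A, B and C with Nanog and 236, 146 and 124 CPM in libraries A, B and C without Nanog. Library A stands high in both lines and the lines overlap. The region was called lower (-0.98 ± 0.19, edgeR adjusted p = 0.000517), and not by DESeq2, where its adjusted p was 0.136.

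By position, members lay outside genes more often than regions in general. Of the members, 458 lay outside protein-coding genes (53.1%, exact 95% interval 49.7 to 56.5%), against 43.2% of all regions. Inside genes and over 1 kb from either end lay 281 (32.6%), against 43.4% of all regions. Within 1 kb of a gene end lay 123 (14.3%, 12.0 to 16.8%), against 13.4% of all regions. With Nanog, 45 of the gene-end members were lower and 3 higher, 120 of those inside genes were lower and 13 higher, and 183 of those outside genes were lower and 41 higher. Lower calls were 36.6% at gene ends, 42.7% inside genes and 40.0% outside, and higher calls 2.44, 4.63 and 8.95% in the same order, differences that were not tested. Over 100 kb from any protein-coding gene lay 70 members (8.12%), against 9.89% of all regions.

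Nearly all members were in the deposited peak lists of both lines. By an overlap of at least 1 bp, 859 members were in both lists (99.7%), against 37.8% of all regions, and the other 3 were in the list without Nanog only. The lists come from the ChIP of the same lines whose signal ranked the members. The high share therefore follows largely from the ranking and is a description. The median length of a member covered was 1575 bp by peaks with Nanog and 1071 bp by peaks without Nanog, and 5 members held 2 or more peaks with Nanog, against 282 without Nanog. Since the regions are the merged peaks of both lists and the libraries with Nanog were deeper, region width and depth cannot be told apart from the line in these lists.

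Members had more other regions nearby than regions in general. A member had a median of 6 other regions within 25 kb, against 3 for all regions, and 32 members had none (3.71%, against 12.2% of all regions). Members within 25 kb of each other formed 795 loci. The largest held 4 members, at Mcl1 and Adamtsl4 on chromosome 3 with 2 lower and 0 higher, and at Fblim1 and Spen on chromosome 4 with 1 lower and 1 higher. At Tdgf1 and Lrrc2 on chromosome 9 a locus of 3 members had 0 calls, with log2 fold changes of -0.10 to 0.05. Neighbouring members share a locus and are not independent observations.

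Which regions count as strongest depended on the ranking. By the line with Nanog alone 737 members (85.5%) were kept, by the line without Nanog alone 768 (89.1%), and 646 regions were in the first 1% of both. The first 1% of every single library shared 489 regions. Ranking by CPM per kb kept 325, and those regions had a median width of 771 bp. Between the lines, the log2 mean CPM of the members correlated with Pearson's r = 0.72, a description across regions that were chosen for a high level in the mean of both.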

How the data were processed

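ESRRB ChIP-seq was analysed in 6 libraries of 12 samples. Samples were grouped by title, and the inputs were not used, since the table analysed has no input column. The deposited table holds unnormalised counts, as whole numbers, for merged peaks. Per the submitters' processing notes the build was mm10, and the tools were MACS2, Bowtie2, deepTools, bedtools 2.26.0, SAMtools 1.4.1 and bcl2fastq 2.19.1. Order, settings and any duplicate removal are not stated there, nor is which sample had a second fixation besides formaldehyde. The deposited peak lists hold positions alone, 1 list a line, labelled as peaks shared by replicates. Column letters do not match the titles' replicate numbers, and each column was tied to a line only.

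The 862 members were found as the regions of highest CPM by column total, mitochondrial regions left out. Regions passing filterByExpr were scaled by TMM and tested by edgeR's quasi-likelihood test (edgeR 4.0.16, R 4.3.3), adjusted over 84892 regions by the Benjamini-Hochberg method. Levels are CPM by column total with SD, and fold changes are TMM-scaled with SE. The members and gene lists were chosen with earlier results of these data known. Named regions are the first 15 ranks, the 10 largest increases and decreases without overlap, up to 4 genes a list, fixed receptor and pluripotency genes, the regions at the limit, the widest and the densest per kb. Other list members, the second Klf4 and Sox2 members and the 8 densest regions were chosen after their values were seen. Genes came from RefSeq GRCm38.p6, with distance to the gene's span. Coordinates are 1-based. The fit was tested on simulated data. The alternatives tried were limma-voom (limma 3.58.1), DESeq2 1.42.0, other scalings, filters, thresholds and rankings, a block by letter and leaving out each library.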

Additional observations from a re-analysis of the deposited data

How the results depend on the processing

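More members were lower than higher with Nanog in every alternative fit run. The counts and the median depended on scaling: with TMM computed on the regions of lowest count 32 members were higher and the median log2 fold change was -0.31, and with the loess offset 139 were higher and 210 lower with a median of -0.046. By column totals 70 were higher and 306 lower. Leaving out each library in turn gave 32 (C with Nanog) and 34 (B with Nanog) to 70 higher, 234 to 389 lower and a median of -0.23 to -0.17. With an adjusted p under 0.01, 35 were higher. Among the first 0.5% of ranks 19 were higher and 189 lower, and among the first 2% of ranks 165 higher and 606 lower. In as many regions ranked by CPM per kb, of which 325 are members and 729 were tested, 9 were higher and 443 lower, with a median of -0.39. In a fit of only regions under 0.5 counts per bp, added after seeing the data, 29 of 394 members were higher and 132 lower, with fewer members tested.

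Letters A, B and C may mark shared batches. Deviations of same-letter libraries correlated at 0.083, 0.223 and 0.128, each library correlating best with its own letter, a hint from the data and not the design. With a replicate block by letter 88 members were higher and 440 lower. Of the 405 called members, 212 kept their call in each of 17 planned fits, 25 higher and 187 lower.

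The share near a gene end was 9.05% at 0.5 kb and 30.4% at 5 kb. The median number of neighbours was 3 within 10 kb and 18 within 100 kb, and 90.7% of members had at least 50% of their length covered in both lists. AAGGTCA was in 13.1% of windows.

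The called region at rank 1 changed sign under the loess offset (0.0042). Of the uncalled named regions, these turned above 0 under that offset: Tet1 (0.095), Mllt6 (0.024), the nearer Sox2 region (0.13), Lifr (0.12), Gapdh (0.030), Atp5b (0.022), Got1 (0.091), Nr5a2 (0.071), Zfp42 (0.067), Col4a1 (0.019), Tfap2c (0.048), Spry2 (0.13), Ncoa3 (0.062), the weaker Atp1b1 region (0.010), Eed (0.034), the weaker Lifr region (0.027) and Il6st (0.0019). With TMM on the regions of lowest count these turned below 0: Tdgf1 (-0.079), Pim3 (-0.013), Esrrb (-0.044), Ogdh (-0.064), Tfcp2l1 (-0.10) and Hmga1 (-0.076). Leaving out 1 library turned the sign of Esrrb (-0.015), Ogdh (-0.0075 and -0.013), Tfcp2l1 (-0.014, -0.021 and -0.033), Spry2 (0.019 and 0.042), the weaker Lifr region (0.069), Ncoa3 (0.036) and Hmga1 (-0.046), and Spry2 was at 0.021 by column totals and 0.0078 with TMM on the regions of highest count. Slc25a4, at 0 to 2 decimals, was above 0 with the size factors of DESeq2 in edgeR (0.0017), by column totals (0.041), with TMM on the regions of highest count (0.028), the loess offset (0.14), DESeq2 (0.00022), voom (0.0024), no filter (0.010), a mean count of at least 50 (0.0012), autosomes only (0.013) and the block (0.00021), and without 1 library (0.0050, 0.011, 0.019 and 0.026). The cause was not tested.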

Other observations

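The members were spread over all chromosomes with regions. Chromosome 3 had the highest share among autosomes, with 68 of its 4652 regions (1.46%), and chromosome 19 the lowest, with 11 of 2076 (0.53%). On chromosome X 10 of 1763 regions were members (0.567%). These shares are descriptions with no test.

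Of the 57 members higher with Nanog, 25 kept that call in all planned fits, and several lay near genes not described above. A member 11.2 kb from Tgif1, a repressor of TGF-beta signalling, had 127 ± 9.69 CPM with Nanog and 78.4 ± 20.1 CPM without Nanog (SD, n = 3 each; log2 fold change 0.65 ± 0.12 SE). Inside Aff1, a gene of a transcription elongation factor, the level was 146 ± 3.31 CPM with Nanog and 98.2 ± 8.35 CPM without Nanog (0.52 ± 0.10). At Nfyc, a subunit of the CCAAT-binding factor NF-Y, it was 154 ± 4.41 CPM with Nanog and 116 ± 2.05 CPM without Nanog (0.37 ± 0.09). These genes were picked from that set after their values were seen.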
